A study of Mus musculus with 23 samples.

Results

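Removal of RAS was followed in mouse embryonic stem cells that were kept in naive culture and carried an ERF knockout label. The comparison set 3 libraries labelled RAS deleted against 3 labelled RAS present, chosen by their labels as 6 of the 23 libraries of the series. All 6 came from the Raslox/lox line, whose label gives H-Ras-/- and N-Ras-/-, the remaining RAS gene is flanked by loxP sites on both alleles, and a ubiquitously driven, tamoxifen-activated Cre recombinase (Ubiq-CreERT2) can cut it out. All 6 also carried the label ERF KO. How that knockout was made, and whether the line is 1 clone, was not given in the sources used here. The RAS deleted cells had received 4-hydroxytamoxifen (OHT) for 6 days and the RAS present cells had not, and an effect of OHT cannot be told apart from one of losing RAS. Both groups grew on gelatin in 2iL, which is N2B27 medium with the MEK inhibitor PD0325901, the GSK3 inhibitor CHIR99021 and the cytokine LIF. The labels give the samples as separate, without saying that they were separate cultures, so the p-values measure a spread between samples. Unless stated otherwise, that spread was estimated over all 23 libraries and not over these 6 alone.

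RAS proteins are membrane-bound switches that pass growth factor signals to the kinases RAF, MEK and ERK, and also to PI3K. ERF is a repressor of the ETS family that sits on ERK target genes and leaves the nucleus when ERK phosphorylates it. In 2iL, MEK is inhibited, so ERK output is already low while RAS is present, and cells stay close to the naive epiblast. FGF and ERK signalling is also known for driving inner cell mass cells into the primitive endoderm, an extraembryonic layer that makes basement membrane and, as visceral endoderm, takes up nutrients by endocytosis.

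RNA was depleted of ribosomal RNA and read as strand-specific pairs of 75 bases. The RAS present libraries held 18985652 to 20657129 estimated counts and the RAS deleted libraries 16221640 to 19500491. Levels are given as CPM, read counts relative to the scaled total of their library, and 3 counts in a library correspond to 0.144 to 0.202 CPM. Mitochondrially encoded genes took 3.36 to 3.40% of counts in the RAS present libraries and 2.84 to 2.90% in the RAS deleted ones. A single predicted gene, Gm26917, took 25.2 to 26.1% and 27.1 to 27.9%. Neither range overlaps between the groups, and the part of either difference in the results was not tested, except that 45 genes were called without Gm26917 against 43 with it. Libraries with the same replicate number deviated together from their group means (correlations of 0.50, 0.31 and 0.52 over 10954 genes), while every other pairing gave -0.05 or less. Deviations within a group cancel out, so the low values of the other pairings partly follow from the positive correlations. Because of those positive correlations, the number served as a pair in a second fit of these 6 libraries, called the paired fit below.

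The targeted genes checked the labels first. Erf (chromosome 7, 25242561 to 25250761, GRCm38) stood at 129, 123 and 96.1 CPM with RAS present and at 172, 153 and 130 CPM with RAS deleted. Its RNA was therefore abundant in all 6 libraries labelled ERF KO, and above the 70.6 to 85.7 CPM of the RAS present libraries labelled ERF wild type. Gene-level counts would not show a small edit, so "ERF knockout" here is the label and not a measured loss. The log2 change of Erf with RAS deletion was 0.39 (SE 0.13, adjusted p = 0.149), with an adjusted p of 8.22e-07 in the paired fit. Hras, which the genotype gives as lost, was at 14.4 to 15.5 CPM with RAS present and at 12.0 to 12.8 CPM with RAS deleted (log2 -0.26, adjusted p = 0.205, and 0.0206 in the paired fit). Nras, labelled as lost too, stood at 43.6, 7.74 and 30.7 CPM and at 52.3, 5.32 and 34.8 CPM. Its lowest value lay in pair 2 of both groups, and its log2 change of 0.16 was far inside that spread (SE 0.56, adjusted p = 0.937). RNA of both genes was thus counted in all 6 libraries, against a plain reading of the genotype label, though gene-level counts would not show which part of a gene is deleted.

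In the fit of all libraries without pairs, RAS deletion changed few genes by 2-fold or more, and mostly genes of low level. The largest falls belonged to Igf1, to the endocytic receptor gene Cubn and to Timd2, and the largest rises to Nt5e, Serpina3h and Tmem173. Of 20372 genes tested, 43 were called, meaning an adjusted p under 0.05 in edgeR's quasi-likelihood test together with a change of at least 2-fold. Called genes were 0.211% of those tested. Of them 14 were higher with RAS deleted (0.0687%) and 29 were lower (0.142%). Only 11 of the 43 reached a mean of 5 CPM in either group, and the most abundant, Apela, had a mean of 72.5 CPM. Without the fold minimum, 266 genes passed (1.31%), 138 higher (0.677%) and 128 lower (0.628%). The median log2 change over all tested genes was 0, with 10166 genes higher and 10121 lower.

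With the replicate pairs in the fit, 207 of 16491 genes were called (1.26%), 68 higher (0.412%) and 139 lower (0.843%), and 3289 passed at any fold (19.9%). All 43 calls were among the 207. Of the 207, 39 had a mean under 1 CPM in both groups and 33 reached 5 CPM in 1 of them. Every one of the 43 had CPM ranges that did not overlap between the groups and moved the same way in 3 of 3 pairs, which 24.6% and 46.3% of all tested genes also did. The count moved with single libraries: it was 21 and 20 without RAS present replicates 2 and 3, and 17 without either of RAS deleted replicates 2 and 3. Among these calls were 17, 15, 13 and 11 of the 43, in that order. It was 40 without RAS present replicate 1 and 37 without RAS deleted replicate 1, with only 19 and 23 of the 43 among them. An offset for the effective gene lengths gave 23 calls, 5 higher and 18 lower, 17 of them among the 43.

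**Figure D1:**
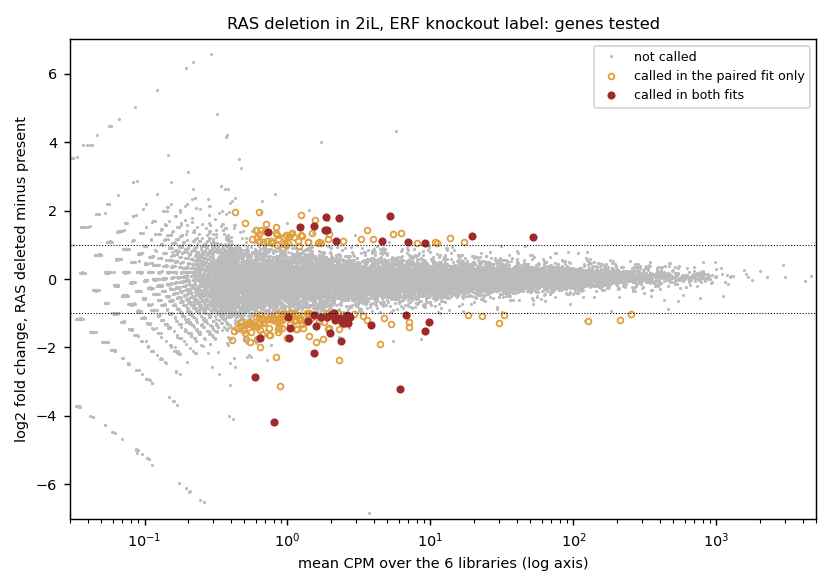
Log2 fold change (RAS deleted minus present, vertical axis) against mean CPM over the 6 libraries (log axis) for 20108 of the 20372 genes tested; the other 264 lie outside the axes. Dark points are the 43 genes called in both fits, open orange points those called in the paired fit only, and dotted lines mark 2-fold; only 11 of the 43 dark points reach 5 CPM in a group.

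Among the genes that rose, Nt5e had the smallest adjusted p. It encodes CD73, a cell surface enzyme that makes adenosine, and lies on chromosome 9 (88327197 to 88372092). It stood at 2.31, 2.17 and 2.31 CPM with RAS present and at 7.11, 5.99 and 11.1 CPM with RAS deleted (log2 1.83, SE 0.23, adjusted p = 0.000799). The lowest RAS deleted library was thus more than double the highest RAS present one. Tmem173 encodes STING, an adaptor of cytosolic DNA sensing, and went from 1.06, 0.920 and 1.10 CPM to 3.76, 3.25 and 3.57 CPM (log2 1.77, SE 0.29, adjusted p = 0.00547). Tgm1, a transglutaminase that cross-links proteins of the epidermal barrier, went from 9.51, 12.2 and 12.7 CPM to 25.6, 26.7 and 30.5 CPM (log2 1.27, SE 0.21, adjusted p = 0.00563). These 3 genes, Serpina3h and the falling gene Tns4 were the genes called under all 20 alternatives tried.

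The most abundant gene that rose was Apela (chromosome 8, 65028417 to 65037336), whose product is a peptide hormone of the apelin receptor made by embryonic stem cells. Its values were 29.2, 31.8 and 32.0 CPM with RAS present and 59.6, 71.2 and 86.8 CPM with RAS deleted (log2 1.23, SE 0.25, adjusted p = 0.0235). The groups lay far apart, yet the call was lost when either RAS deleted replicate 2 or 3, or any 1 RAS present library, was left out (adjusted p up to 0.119). Apela overlaps the predicted gene Gm45886 on the same strand, so the division of reads between them is uncertain. Several regulators rose from low levels. The T-box transcription factor genes Tbx15 and Tbx18 had log2 changes of 1.51 and 1.42, the homeobox factor Meis2 1.11 and the POU factor Pou2f3 1.08 (4.32, 4.55 and 4.52 CPM to 8.59, 8.46 and 11.3 CPM). Bdkrb2, a bradykinin receptor, rose by 1.54, the RNA-binding protein gene Zfp36l3 by 1.36 and Cttnbp2, a cortactin-binding protein of neurons, by 1.04. Serpina3i and Serpina3h rose by 1.42 and 1.82 as neighbours on chromosome 12. They are close paralogs of 1 protease inhibitor family, the annotation types Serpina3h as a pseudogene, and reads shared between such copies make both values uncertain. The last of the 14 was the predicted gene Gm40847.

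The genes that fell were led by Igf1, the growth factor gene on chromosome 10. It had 12, 30 and 46 counts with RAS present and 0, 3 and 1 with RAS deleted, all 3 at or under the floor of 3 counts. Pooled over libraries, 88 counts stood against 4, a depth-adjusted ratio of 19 with a 95% interval of 7.15 to 71.2 that covers counting error only (adjusted p = 0.0086). Timd2, a receptor that takes up ferritin, had 61 counts against 7 (ratio 7.51, interval 3.43 to 19.5, adjusted p = 0.0138). Tns4, a focal adhesion protein gene, fell from 1.39, 2.71 and 3.47 CPM to 0.455, 0.616 and 0.607 CPM (log2 -2.16, SE 0.37, adjusted p = 0.00563). All 3 of these genes were low even where RAS was present. Igf1 lost its call with the effective-length offset (adjusted p = 0.0722) and without RAS deleted replicate 3 (0.0523), and Timd2 without RAS present replicate 3 or RAS deleted replicate 1 or 3 (up to 0.093).

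Timp2, an inhibitor of matrix metalloproteinases, had 7.4, 8.77 and 11 CPM with RAS present and 4.44, 4.48 and 4.11 CPM with RAS deleted (log2 -1.06, adjusted p = 0.0471). The RAS deleted libraries were tightly grouped and below every RAS present one, but Timp2 lost its call when any 1 of the 6 libraries was left out and with the effective-length offset, and was called under 12 of 20 alternatives (adjusted p up to 0.211). Arhgef28, a nucleotide exchange factor of small GTPases, went from 4.13, 5.63 and 6.78 CPM to 1.99, 2.58 and 1.95 CPM (log2 -1.33). Klb, the co-receptor beta-Klotho through which endocrine FGFs act, went from 1.78, 2.22 and 2.89 CPM to 0.740, 0.728 and 1.21 CPM (log2 -1.37). Rims1 and Rims4, scaffold genes of the presynaptic release site, changed by -1.57 and -1.06, the POU factor gene Pou2f2 by -1.12 and the co-chaperone gene Bag2 by -1.13. Others that fell were Frmpd1 (-1.82), Olfml2b (-1.74), B3galt1 (-1.71), Gramd3 (-1.44), Col9a3 (-1.30), Nell2 (-1.27), Efhc2 (-1.26), Rimkla (-1.23), Atxn7l1 (-1.18) and Shtn1 (-1.12). Slc6a15 (-1.10), Sept4 (-1.10), Dysf (-1.07), Cyb5rl (-1.01) and the predicted genes Gm12690 and Gm3558 fell as well, beside Cubn and Dab2 described next. With the effective-length offset Dysf stood at -0.38, Slc6a15 at -0.73, Rimkla at -0.78 and, among the rises, Tbx15 at 0.94 and Cttnbp2 at 0.67, none of them called, and Cyb5rl at -1.76. Meis2 stood at 0.69 without RAS deleted replicate 3 and Olfml2b at -2.67 without RAS deleted replicate 2. Gm12690 was called under 9 of 20 alternatives and Zfp36l3 under 8 of 19. Timp2, Sept4, Slc6a15, Dysf, Rims4, Cyb5rl, B3galt1, Serpina3h and the predicted genes fall outside the naming rule and were named after their values were seen.

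**Figure D2:**
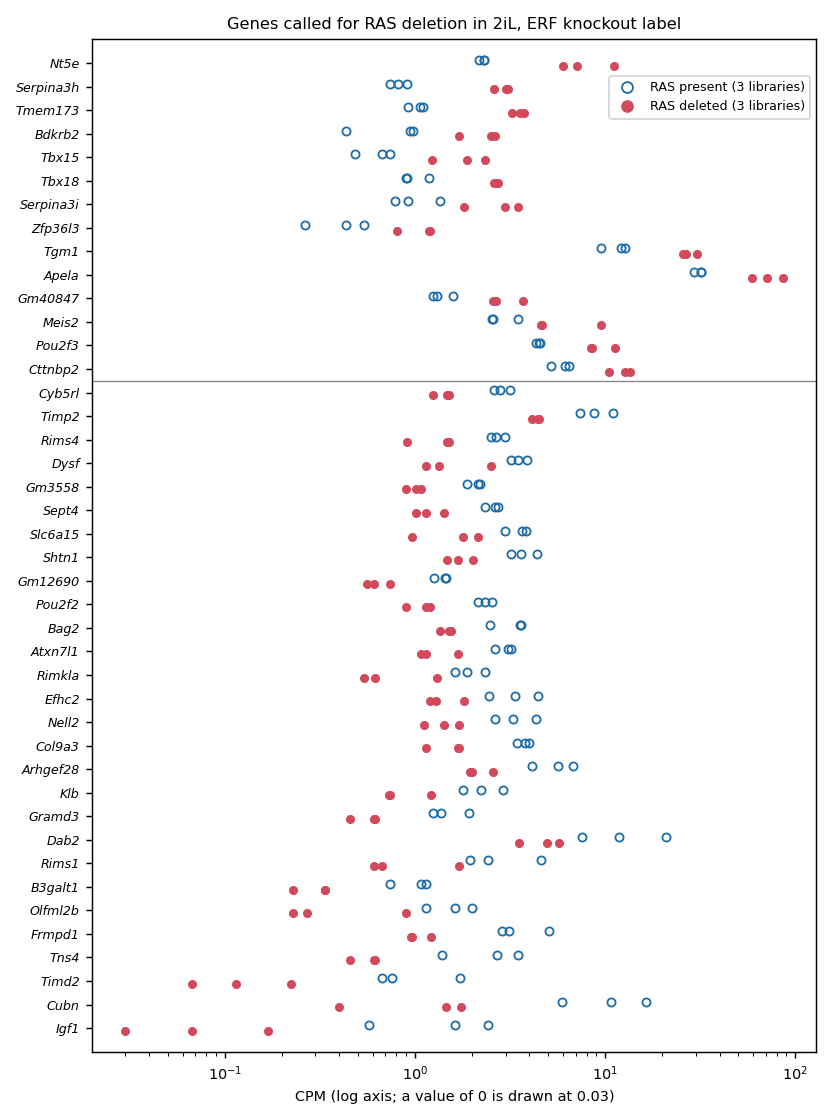
CPM of 42 of the 43 called genes in each library (log axis; a value of 0 is drawn at 0.03), with open circles for the 3 RAS present and filled circles for the 3 RAS deleted libraries. Genes above the line rose (14) and those below it fell (28); no gene drawn has overlapping groups, and most values lie under 5 CPM.

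Of the genes listed for primitive and visceral endoderm, 18 of 19 tested were lower with RAS deleted. Cubn, Amn and Dab2 belong to 1 machine of that tissue: cubilin is the receptor that binds protein cargo at the cell surface, amnionless anchors it in the membrane, and the adaptor Dab2 couples it to clathrin. Cubn (chromosome 2, 13276338 to 13491813) had 5.96, 10.7 and 16.5 CPM with RAS present and 0.398, 1.46 and 1.75 CPM with RAS deleted (log2 -3.22, SE 0.51, adjusted p = 0.00818). Dab2 (chromosome 15, 6299788 to 6440712) had 7.59, 11.9 and 21 CPM and 3.53, 4.93 and 5.73 CPM (log2 -1.51, SE 0.29, adjusted p = 0.0164). The 2 groups did not overlap for either gene, and within each group pair 1 was lowest and pair 3 highest. Amn (chromosome 12, 111271095 to 111276426) had 1.35, 2.27 and 4.57 CPM and 0.455, 0.672 and 1.35 CPM. Its groups met at 1.35 CPM and it was called in the paired fit only (log2 -1.72, adjusted p = 1.99e-05, against 0.104 unpaired). Without the pairing, a fit of the 6 libraries alone left Cubn at an adjusted p of 0.0589 and Dab2 at 0.153. Dab2 also lost its call without RAS deleted replicate 1 or 2 (0.0578 and 0.0749). Lrp2 encodes megalin, the large receptor that works beside cubilin, and was looked up after these values were seen: it had 31.0, 24.7 and 32.0 CPM against 19.9, 16.9 and 19.3 CPM (log2 -0.65, adjusted p = 0.142, and 1.72e-07 in the paired fit).

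Because these 3 genes of 1 receptor complex moved together, the 250 bases before their RefSeq start (GRCm38.p6) are printed, 5′ to 3′ on the gene's strand. Capitals mark matches to the GATA motif letters AGATAA or TGATAA on either strand, the letters bound by the endoderm factors Gata4 and Gata6. The window of Cubn is chr2:13491877-13492126 on the minus strand, that of Amn chr12:111270846-111271095 on the plus strand, and that of Dab2 chr15:6299539-6299788 on the plus strand, the more upstream of its 2 starts in the table.
Cubn: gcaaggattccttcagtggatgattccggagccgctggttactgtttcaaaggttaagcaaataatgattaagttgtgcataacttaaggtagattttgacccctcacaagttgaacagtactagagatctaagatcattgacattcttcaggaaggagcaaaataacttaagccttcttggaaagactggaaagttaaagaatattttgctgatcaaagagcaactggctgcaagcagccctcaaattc
Amn: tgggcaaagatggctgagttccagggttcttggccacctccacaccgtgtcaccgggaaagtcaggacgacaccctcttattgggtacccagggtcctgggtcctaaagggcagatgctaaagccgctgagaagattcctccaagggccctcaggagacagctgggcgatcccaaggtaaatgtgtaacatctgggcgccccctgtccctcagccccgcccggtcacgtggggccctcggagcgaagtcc
Dab2: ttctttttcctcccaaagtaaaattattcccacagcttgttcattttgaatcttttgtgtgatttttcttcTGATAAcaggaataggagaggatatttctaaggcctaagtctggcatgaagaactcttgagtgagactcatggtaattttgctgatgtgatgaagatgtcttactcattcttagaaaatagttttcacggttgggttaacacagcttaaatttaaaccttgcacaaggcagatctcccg
Dab2 held 1 match, TGATAA at -179 from its start, and Cubn and Amn held 0. Of 32851 windows of the same length, 16.6% held at least 1. The ETS motif letters CCGGAAG were searched on both strands too; none of the 3 windows held them, and 6.91% of all windows did. A match is a run of letters in a window, not evidence of binding.

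Basement membrane genes of the endoderm list were far more abundant and differed as much between pairs as between groups. Lama1, a laminin chain, had 220, 318 and 477 CPM with RAS present and 111, 173 and 221 CPM with RAS deleted. Col4a1, a type IV collagen chain, had 154, 263 and 470 CPM and 66.2, 137 and 180 CPM. For both genes the groups overlapped, while each RAS deleted library lay below its own pair. The paired fit called Lama1 (log2 -1.01, adjusted p = 3.83e-14), Col4a1 (-1.19, 0.000238) and Col4a2 (-1.20, 8.90e-06), whose unpaired adjusted p were 0.191, 0.205 and 0.205. Col4a1 and Col4a2 sit head to head on opposite strands and overlap, which strand-specific reads can divide. Pdgfra, the PDGF receptor that marks primitive endoderm, had 5.81, 8.55 and 15.3 CPM and 2.96, 4.48 and 5.12 CPM (paired log2 -1.21, adjusted p = 6.08e-07). Srgn, a proteoglycan gene, was called in the paired fit as well (-1.16, adjusted p = 9.61e-06).

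Of the 22 endoderm genes listed, 19 were tested, while Afp, Apoa1 and Ttr were too low. Their median log2 change was -0.92, with 18 of 19 lower, against a median of 0 over all genes. It ran from -1.25 to -0.48 over the alternatives, and was -0.48 without RAS present replicate 3. Called lower were 2 of 19 in the main fit (0.142% of all genes) and 8 of 18 in the paired fit (0.843%). At any fold the paired fit passed 11 of 18 as lower (9.49% of all genes), adding the transcription factors Gata4 (-0.71, adjusted p = 7.33e-05) and Sox17 (-0.60, 0.0198) and the junction protein gene Amot (-0.54, 0.020). These 3 were named after their values were seen. Gata6, an early primitive endoderm factor, stood at 3.89, 5.68 and 7.62 CPM against 4.21, 3.92 and 3.71 CPM (paired adjusted p = 0.0505), and Lamb1 at 160, 222 and 340 CPM against 98.4, 138 and 144 CPM (paired 0.0974). Other abundant members had differences near 0: Lamc1 had a log2 change of 0.03, Apoe of -0.02 and Sparc of -0.13. The summed level of the list was 2084, 2803 and 3837 CPM with RAS present and 1858, 2421 and 2641 CPM with RAS deleted, lower in each pair. In libraries labelled ERF wild type in 2iL the same sum was 1292 to 1449 CPM with RAS present and 1132 to 1166 CPM with RAS deleted. In these bulk samples, fewer endoderm-like cells and less RNA per cell cannot be told apart.

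**Figure D3:**
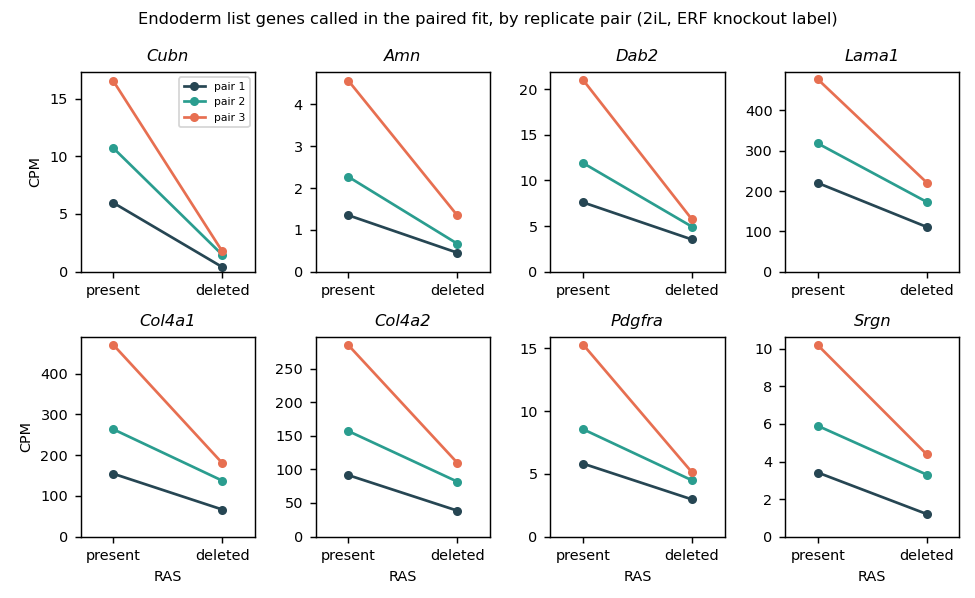
CPM (linear axes from 0) of the 8 endoderm list genes called in the paired fit, in the RAS present and RAS deleted library of each replicate pair, joined by a line. All 24 lines fall, from different starting levels, and pair 3 is the highest in both groups for each gene.

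The calls that only the paired fit made added 20 named genes, 10 in each direction taken in order of fold change. Fgfr2, the receptor for FGFs on primitive endoderm cells, had 1.25, 2.44 and 2.79 CPM with RAS present and 0.512, 0.896 and 0.607 CPM with RAS deleted (paired log2 -1.65, adjusted p = 0.000153). Its annotated span (chromosome 7, 130162451 to 133123350) overlaps many other genes on the same strand. The division of reads between them is uncertain, here and in the comparison of media below. Ccnd2, which encodes cyclin D2, had 3.60, 5.36 and 11.9 CPM and 1.08, 2.13 and 2.43 CPM (-1.83, adjusted p = 7.27e-08). Neither passed unpaired (adjusted p = 0.131 and 0.280). Car4, a membrane carbonic anhydrase, had 2.45, 2.22 and 6.94 CPM and 0.398, 1.01 and 0.809 CPM (-2.29). The heparan sulfate sulfotransferases Hs3st1 and Hs6st2 fell by 1.44 and 1.51 on the log2 scale, the forkhead factor Foxq1 by 1.45, the matrix glycoprotein Thbs1 by 1.72 and the retinol transporter Stra6 by 1.43. Clic5 (-2.20) and Trim50 (-1.62) complete the falls.

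Of the rises in the paired fit, the heat shock protein gene Hspa1a had 3.65, 4.01 and 2.89 CPM with RAS present and 8.02, 10.9 and 7.62 CPM with RAS deleted (log2 1.31, adjusted p = 1.10e-07). Bhmt2, a methyltransferase of methionine synthesis, had 3.51, 3.74 and 2.05 CPM and 6.77, 9.58 and 7.01 CPM (1.31, adjusted p = 8.22e-07). Dusp8, a phosphatase of the stress kinases JNK and p38, rose by 1.72 and the WNT target Sp5 by 1.37, both from about 1 CPM or less. The others were Gstm3 (1.36), Myl7 (1.35), Tspan1 (1.32), Snora44 (1.28), Tenm1 (1.27) and Tsx (1.25). For all 20 genes the unpaired adjusted p lay above 0.05, the nearest being Bhmt2 at 0.0502.

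Genes that report ERK activity showed no common shift. Of the 17 feedback inhibitors of the pathway, 0 were called in either fit, and the median log2 change was 0.004. Spry4 stood at 5.05, 5.14 and 6.10 CPM with RAS present and at 5.01, 4.70 and 6.47 CPM with RAS deleted (log2 -0.01, SE 0.22), and Dusp6 at 9.51, 11.5 and 9.93 CPM against 9.28, 10.5 and 10.6 CPM (-0.03, SE 0.23). Both are among the first genes that ERK induces, and their groups overlapped. Dusp1, a phosphatase induced by many stresses, rose at less than 2-fold (0.48, adjusted p = 0.0495). In the paired fit Spry2 (0.33) and Dusp1 (0.47) rose and Dusp4 (-0.52) and Spred1 (-0.18) fell, 4 of 16 tested against 19.9% of all genes at any fold in that fit. Etv5 was level at 226 to 235 CPM against 217 to 228 CPM (-0.04), while Etv4 differed by -0.24 (20.9, 19.1 and 22.2 CPM against 18.2, 14.2 and 20.4 CPM; paired adjusted p = 0.0188).

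Of the other immediate early genes, Jun, which encodes an AP-1 subunit, had 8.17, 8.88 and 10.8 CPM with RAS present and 17.4, 15.5 and 17.2 CPM with RAS deleted (log2 0.85, SE 0.20, adjusted p = 0.0363). In the paired fit Junb (0.58), Jund (0.78), Ier5 (0.81) and Srf (0.30) rose too, and Mycn (-0.17) and Etv4 fell, 5 and 2 of 18 tested against 10.5% and 9.49% of all genes. Egr1 stayed under 1 CPM in all 6 libraries and Fos between 2.58 and 4.14 CPM, with overlapping groups. Of the 20 list members tested, 0 were called and the median was 0.241. The members past a threshold in this and the following lists, other than those called, were picked after their values were seen.

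Relatives of RAS and components of its pathway had small differences. Among 15 RAS family genes, the median was 0.094 and 0 were called. The paired fit passed Rras (0.48), Mras (0.32), Rap1a, Rap1b and Ralb (each 0.24 to 0.25) as higher and Hras as lower, 5 and 1 of 15 against 10.5% and 9.49% of all genes. Rras stood at 15.3, 18 and 16.6 CPM with RAS present and at 20.7, 24.5 and 25.0 CPM with RAS deleted. Of 24 effectors and adaptors, from Sos1 and Grb2 to the RAF, MEK and ERK genes, the median was -0.016. Only Rps6ka1, the ERK-activated kinase RSK1, passed in the main fit (118, 131 and 135 CPM to 147, 168 and 174 CPM, log2 0.35, adjusted p = 0.0198). In the paired fit 2 of 24 passed as higher, against 10.5% of all genes.

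The list of PI3K and FOXO genes, which holds targets of the FOXO factors that PI3K signalling keeps out of the nucleus, had a median of 0.181 over 18 genes. Of these, 13 were higher, and the paired fit passed 7 as higher and 0 as lower (10.5% and 9.49% of all genes), none at 2-fold. Klf6, a zinc finger factor, had 26.8, 32.9 and 34.4 CPM with RAS present and 55.1, 58.5 and 68.4 CPM with RAS deleted (log2 0.95, SE 0.15, adjusted p = 0.00547). Irs2, the insulin receptor substrate, had 14.2, 16.4 and 18.6 CPM and 20.9, 20.7 and 25.9 CPM (0.46, adjusted p = 0.0457). Both were separated between groups, while the most abundant member, Txnip, was not (637, 724 and 635 CPM against 648, 767 and 650 CPM). Foxo3, Foxo4, Insr, Pdk4 and Deptor rose in the paired fit by 0.21 to 0.27.

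Pluripotency genes showed small changes in both directions. Of the general factors, Sox2 had 211, 237 and 228 CPM with RAS present and 208, 233 and 237 CPM with RAS deleted, and Pou5f1, which encodes OCT4, had 529, 572 and 562 CPM and 670, 718 and 703 CPM (log2 0.33, SE 0.08, adjusted p = 0.0383). These levels match the stem cell label in all 6 libraries. Of 17 naive genes, with a median of 0.082, 0 were called. The lysosomal enzyme gene Manba passed as lower (70.2, 71.4 and 75.2 CPM to 53.4, 51.9 and 56.1 CPM, log2 -0.43, adjusted p = 0.0380). In the paired fit Klf2, Klf5, Tbx3, Tfcp2l1 and Fbxo15 rose by 0.14 to 0.32, and Zfp42, Nr0b1, Tcl1 and Manba fell by 0.25 to 0.54, which is 5 and 4 of 17 against 10.5% and 9.49% of all genes. Nanog (log2 0.08) and Esrrb (0.05) had overlapping groups. Of 17 formative and primed genes, with a median of -0.047, Sall2 passed in the main fit (0.46, adjusted p = 0.0380), and Dnmt3b stood at 42.3, 44.1 and 47.5 CPM against 40.3, 38.9 and 47.8 CPM.

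Of 14 genes of LIF and STAT3 signalling, the cytokine arm of 2iL, 13 were higher, with a median of 0.262 and 0 called. The paired fit passed 7 as higher (10.5% of all genes) and Lifr, the LIF receptor, as lower (-0.13). Socs3, the feedback inhibitor of this pathway, had 155, 141 and 134 CPM with RAS present and 181, 205 and 200 CPM with RAS deleted (paired log2 0.43, adjusted p = 0.000717). Pim3, a kinase gene induced by STAT3, had 94.1, 103 and 105 CPM and 121, 145 and 142 CPM (0.42, adjusted p = 2.03e-07). The groups did not overlap for either gene. Jak1 (0.31), Pim1 (0.27), Tfcp2l1 (0.32), Junb (0.58) and Sbno2 (0.20) made up the 7, and Tfcp2l1 and Junb stand in other lists as well.

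Genes of the two-cell-like state, a rare and transient condition of such cultures, tracked the replicate pair. Zscan4f had 70.9, 83.2 and 29.1 CPM with RAS present and 93.3, 105 and 38.3 CPM with RAS deleted. Pair 3 was low in both groups, and each RAS deleted library lay above its pair. In the main fit the log2 change was 0.38 with an SE of 0.56 (adjusted p = 0.820), and in the paired fit 0.36 (adjusted p = 8.16e-06). Zscan4c, Zscan4d, Usp17lc, Tmem92 and Gm20767 passed in the paired fit as well, 6 of 12 tested against 10.5% of all genes as higher, none at 2-fold. The Zscan4 and Usp17l genes are near-identical copies, so their separate values are uncertain.

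The remaining lists held 2 further calls, both made by the paired fit alone, apart from genes already described. The smooth muscle actin gene Acta2 of the fibroblast list differed by -1.17 (0.288, 0.920 and 2.10 CPM against 0, 0.616 and 0.876 CPM), and Igfbp4 of the estrogen receptor list by -1.19 (5.53, 3.25 and 6.25 CPM against 2.79, 1.74 and 2.02 CPM; adjusted p = 3.08e-05). Igfbp4 was the 1 of 13 estrogen receptor targets that passed in the paired fit, against 19.9% of all genes at any fold, and the list median was -0.045. Fibroblast markers were otherwise carried by Fn1, which stem cells express, with Col3a1, Lum and Dcn at 0 in all 6 libraries. The mesoderm list summed to 18.2 to 23.2 CPM with RAS present and 30.0 to 32.8 CPM with RAS deleted, with Cer1 at 0 throughout. That difference followed Cdx1, a homeobox gene, at 9.90, 9.20 and 7.94 CPM against 18.6, 16.2 and 16.1 CPM (log2 0.91, adjusted p = 0.0170). Of the trophoblast list, Id2 (0.99, adjusted p = 0.0124) and Plet1 (0.89, adjusted p = 0.0444) rose at just under 2-fold, and Id2 is not specific to that tissue. Krt8 and Krt18, keratins that endoderm shares, were highest in pair 3 with RAS present (20.4 and 21.7 CPM).

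Among stress and growth genes, 6 of 18 p53 targets rose and 2 fell in the paired fit (10.5% and 9.49% of all genes), with a median of 0.102. Cdkn1a, the cell cycle inhibitor p21, had 64.2, 73.2 and 65.4 CPM with RAS present and 90.6, 115 and 91.4 CPM with RAS deleted (paired log2 0.53, adjusted p = 2.14e-08). Genes of the integrated stress response had a median of -0.099, with 3 of 19 higher and 6 lower in the paired fit, against the same shares of all genes. Chac1, a glutathione-degrading enzyme gene, had 17.3, 19.1 and 16.3 CPM and 10.9, 8.57 and 8.42 CPM (paired -0.93, adjusted p = 1.18e-07). Cdk6, a partner of D cyclins, passed in the main fit (34.7, 33.1 and 35.6 CPM to 42.6, 47.9 and 52.8 CPM, log2 0.47, adjusted p = 0.0124). The proliferation marker Mki67 was level (-0.01). Medians were 0.022 for 24 cholesterol synthesis genes, 0.072 for 17 glycolysis genes, 0.059 for 10 serine and glycine genes, 0.142 for 15 WNT targets, 0.122 for 18 cell cycle entry genes, -0.147 for 7 neural genes and 0.207 for 17 interferon response genes, each with 0 called in the main fit.

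**Figure D4:**
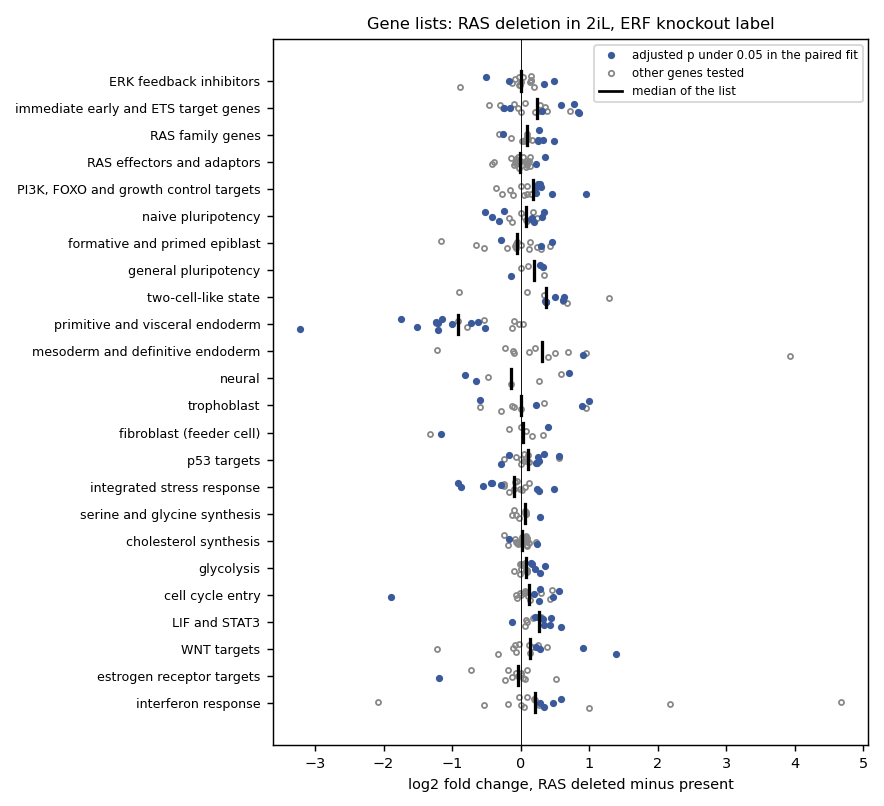
Log2 fold change (RAS deleted minus present) of each tested member of the 24 gene lists; filled points pass an adjusted p of 0.05 in the paired fit and bars mark each list's median. Positions and medians come from the unpaired fit of all 23 libraries, in which the endoderm median is -0.92 and the others run from -0.147 to 0.375.

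The same deletion with the ERF wild type label in 2iL called 244 genes (1.20%), 141 of them higher (0.692%), from 6 libraries that share none with these. Leaving out single libraries moved that count between 70, without its RAS present replicate 1, and 305. Higher calls were no longer the majority without RAS present replicate 2 (69 higher and 88 lower) or 3 (142 and 163), or without RAS deleted replicate 1 (78 and 90). Of the 43 genes, 3 were called there in the same direction, which is 6.98% of the 43 and 1.23% of the 244. They were Cttnbp2, which rose (log2 1.04 and 1.35), and Timp2 (-1.06 and -1.56) and Sept4 (-1.10 and -1.14), which fell. None was called in the opposite direction, and 31 of 43 had the same sign. The difference between the 2 effects, tested as an interaction, was called for 77 genes (0.378%), and 7 of the 43 were among them. That count ran from 26, without RAS deleted replicate 2 of the ERF knockout label, to 159, without RAS present replicate 3 of ERF wild type, and was 110 with only the compared groups fitted and 458 with their replicate pairs as well. The 7 of the 43 were Tns4, Dab2, Efhc2, Rimkla, Shtn1 and Slc6a15, more negative with the ERF knockout label, and Serpina3h, more positive. These signs are partly fixed by the choice of the 43 for their effect here. For Dab2 the interaction was -2.07 (SE 0.46, adjusted p = 0.0309), between -1.51 here and 0.55 with ERF wild type, where it stood at 1.96 to 2.46 CPM with RAS present and 2.71 to 3.75 CPM with RAS deleted.

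The endoderm genes started from other levels with ERF wild type. Cubn stood at 0.0595 to 0.0929 CPM and 0.0484 to 0.215 CPM there, near or under the floor of 3 counts, and its interaction had an adjusted p of 0.434. Col4a1 stood at 18.2 to 30.7 CPM and 14.4 to 17.3 CPM. The endoderm list had a median of -0.159 with 0 called in that setting, and Dab2 was the 1 member called for the interaction. Klf6 differed between the settings by 1.01 (adjusted p = 0.0206), with an effect of -0.06 with ERF wild type, and Pou5f1 by 0.46 (adjusted p = 0.0412). Among called genes with a mean of at least 5 CPM in a group, the largest positive interactions were Slco4a1 (1.97), Fignl2 (1.84), Ffar3 (1.76), Tgm2 (1.65) and Nuak1 (1.57). Tgm2 had 51.2, 46.6 and 43.9 CPM and 57.4, 60.1 and 69.6 CPM here (log2 0.40, adjusted p = 0.303), against -1.25 with ERF wild type. The two-cell-like list had a median of 2.13 with ERF wild type, with 4 of 13 called higher against 0.692% of all genes, and of 0.375 with 0 called here, but 0 of its genes were called for the interaction.

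In FA, the medium with FGF2 and Activin A that moves cells toward the epiblast, the deletion with the ERF knockout label called 1401 genes (6.88%), 573 of them higher (2.81%). Of the 43 genes, 6 were called there in the same direction, 14% of the 43 and 0.428% of the 1401. Cubn (-3.22 and -4.54), Dab2 (-1.51 and -1.97), Tns4 (-2.16 and -2.27), Timd2 (-2.87 and -2.85) and Klb (-1.37 and -2.51) fell in both media, and Meis2 rose in both (1.11 and 1.79). Cubn had a mean of 102 ± 28.8 CPM with RAS present and 4.4 ± 0.9 CPM with RAS deleted in FA (SD, n = 3). The endoderm list had a median of -1.43 in FA, with 10 of 19 called lower against 4.06% of all genes.

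The difference of the RAS effect between the media was called for 936 genes (4.59%), 466 of them more positive in FA (2.29%), and 21 of the 43 were among them. Nt5e was called in opposite directions, 1.83 in 2iL and -2.06 in FA, an interaction of -3.88 (SE 0.32, adjusted p = 5.04e-08). Its mean fell from 5.24 ± 0.635 CPM to 1.25 ± 0.223 CPM in FA (SD, n = 3). The interaction was also called and negative for Tmem173 (-2.43), Tgm1 (-1.64), Tbx18 (-2.26) and Apela (-1.10), which rose in 2iL, and positive for Nell2 (2.02) and Igf1 (4.71), which fell there. Since these genes were called for their 2iL effect, a difference of this sign is partly fixed by that choice. It was of the other sign, and not called, for Meis2 (0.69) and Serpina3h (0.63) among the rises and Cubn (-1.32), Klb (-1.14), Dab2 (-0.46) and Tns4 (-0.11) among the falls. Among ERK targets, Spry4 had a log2 difference of -0.01 in 2iL and -4.41 in FA (interaction adjusted p = 1.84e-08), and Etv4 of -0.24 and -5.39 (5.41e-09). Fgfr2 had -1.65 in 2iL and 2.59 in FA (0.000129). Of the 43, 25 had the same sign in FA.

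**Figure D5:**
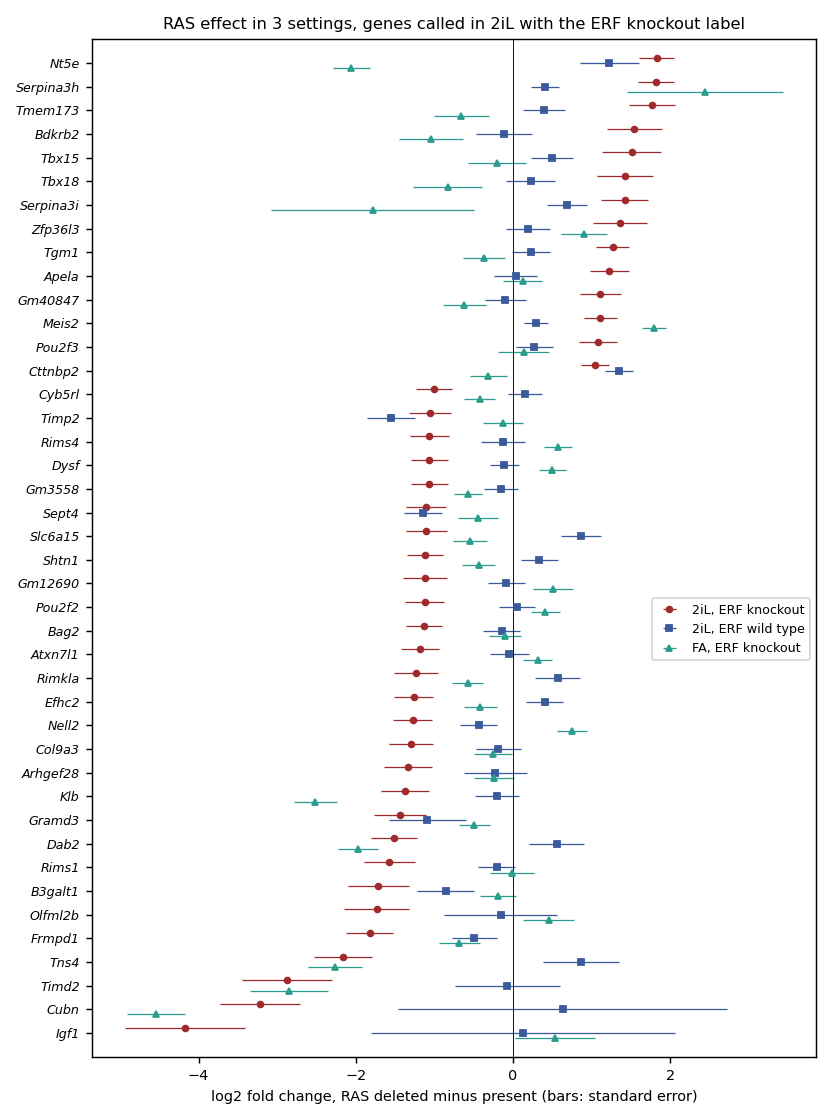
Log2 fold change for RAS deletion with its standard error for 42 of the 43 called genes in 3 settings: 2iL with the ERF knockout label (circles), 2iL with ERF wild type (squares) and FA with the ERF knockout label (triangles). The circles chose the genes and are a description; Cubn, Dab2, Tns4, Timd2 and Klb lie left of 0 in both settings with the ERF knockout label, and Nt5e lies on opposite sides in the 2 media.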

How the data were processed

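Per the submitters' processing notes, reads were handled with bcl2fastq 2.20.0, fastp 0.20.0 and Salmon (version not given in the sources used here) on mm10. For every library the authors deposited a gene table holding estimated counts, TPM and an effective length, per the file headers. They also deposited a count matrix of the 23 libraries, in which 0 cells differed from these estimated counts after rounding. The TPM values the authors deposited were not tested. Salmon divides reads among similar transcripts, so close copies are uncertain.

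Rounded counts of all 23 libraries (8 groups by label) were fitted in edgeR 4.0.16 (R 4.3.3) after filterByExpr and TMM scaling, with a robust quasi-likelihood test and a coefficient per group. A call needed a change of at least 2-fold and an adjusted p (Benjamini-Hochberg, over all 20372 genes tested) under 0.05. The standard error of a log2 change is its size over the square root of its F value. The paired fit used the 6 libraries with the replicate number, taken from the titles, as a block. Its p-values rest on the spread left once the levels of the pairs are taken out. The pairing rests on the correlations given above, each over 0.1. The 5 comparisons tested were RAS deletion here, with ERF wild type, in FA, and the 2 interactions. No 2 replicates agreed within sampling noise (chi-square per degree of freedom from 4.95). Intervals come from counts pooled over the libraries of a group, so they cover counting error only and leave out the spread between replicates. Without molecular identifiers PCR copies count as separate reads, which can make these intervals too narrow as well.

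Members and gene lists were chosen with earlier results of these data known. Named genes were the targets; up to 20 calls each way without overlapping ranges and with a mean of at least 1 CPM; 10 more each way from the paired fit; 5 each way from the interactions (mean of at least 5 CPM); and, from each list, the called and the 4 most abundant members. Predicted genes and pseudogenes were passed over, 4 of the 43. Gene positions come from GENCODE M21 on GRCm38. The remaining RAS gene and some other genes are not reported here. Both fits were run on simulated data with no pair effect, the same spread for every gene and no changed gene of low count. That run therefore says nothing on the pairing or on calls of low level. Alternatives were other size factors, low-count filters, DESeq2 1.42.0, fits of the compared groups with and without the block, no fold minimum, no Gm26917, an effective-length offset and leaving out each library; block fits of all libraries and without each pair were added after the data were seen.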

Additional observations from a re-analysis of the deposited data

Results flagged for a closer look

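The results below are RAS effects that differed between settings by the interaction test, on the log2 scale, each as the effect here minus that in the other setting or the reverse as stated. With the ERF knockout label minus with ERF wild type, in 2iL, the difference was -3.02 for Tns4, -2.07 for Dab2, -1.66 for Efhc2, -1.80 for Rimkla, -1.45 for Shtn1, -1.97 for Slc6a15, -2.33 for Lrrc15, -1.73 for Trpm1, -1.45 for Ankrd45 and -1.45 for Zdhhc23. It was 1.97 for Slco4a1, 1.84 for Fignl2, 1.76 for Ffar3, 1.65 for Tgm2, 1.57 for Nuak1 and 1.41 for Serpina3h. For Tns4, Dab2, Efhc2, Rimkla, Shtn1, Slc6a15 and Serpina3h, which were called for their effect here, the sign is partly fixed by that choice. Adjusted p ranged from 0.00458 (Tgm2) to 0.0496 (Ankrd45). Lrrc15 had 28, 11 and 8 counts with RAS present and 5, 6 and 1 with RAS deleted here. It passed the minimum of 5 CPM through the ERF wild type groups (means of 7.09 and 10.7 CPM), so its effect here is not measured well. Ankrd45, Zdhhc23 and Ffar3 passed the minimum through those groups too.

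For libraries of the ERF knockout label, the effect in FA minus that in 2iL was taken next. Differences called for genes that rose in 2iL were -3.88 for Nt5e, -2.43 for Tmem173, -2.59 for Bdkrb2, -1.72 for Tbx15, -2.26 for Tbx18, -1.64 for Tgm1, -1.10 for Apela, -1.35 for Cttnbp2 and -1.73 for Gm40847. Those called for genes that fell in 2iL were 4.71 for Igf1, 2.19 for Olfml2b, 1.56 for Rims1, 2.02 for Nell2, 1.5 for Atxn7l1, 1.03 for Bag2, 1.53 for Pou2f2, 1.64 for Rims4, 1.63 for Gm12690, 1.57 for Dysf and 1.52 for B3galt1. Since these genes were called for their 2iL effect, a difference toward 0 in the other medium is partly fixed by that choice. Other large differences, among genes with a mean of at least 5 CPM in a group, were 5.67 for Ror1, 4.25 for Fgfr2, 4.02 for Fgf8 and 3.55 for Rasgrp3, and -5.15 for Etv4, -4.44 for Epha1, -4.39 for Spry4 and -4.20 for Fbp2. Ror1, Fgf8 and Rasgrp3 had at most 5, 11 and 8 counts in any of the 6 libraries in 2iL and passed the minimum through the RAS deleted group in FA, so their 2iL effects are not measured well.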

How the results depend on the processing

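The 43 calls became 240 with no filter on low counts, 82 with DESeq2, 75 with only the compared groups and no replicate block, 207 with that block, 266 with no fold minimum and 23 with the effective-length offset. Blocks for all 23 libraries gave 120, and the paired fit without pair 1, 2 or 3 gave 193, 190 and 182, alternatives chosen after seeing the data. The 244 calls with ERF wild type became 559 without the filter and 1161 without the fold minimum, and those in FA and for the medium interaction 5369 and 2669 without it. The 77 for the ERF interaction became 457 without the filter, 151 with DESeq2, 458 with only the compared groups and the replicate block (110 without the block), 320 without the fold minimum and 46 with the offset. Leaving out 1 library, which leaves fewer samples, gave 17 to 40, 70 to 305, 26 to 159, 1044 to 1435 and 650 to 1021 for the 5 comparisons in the order here, ERF wild type, ERF interaction, FA and medium. The libraries that moved the ERF wild type count most were RAS present replicates 1 and 2 (70 and 157) and RAS deleted replicates 2 and 3 (116 and 119). With only its own groups, 77% of the ERF wild type calls were higher against 57.8%, and 44.8% were without the fold minimum. Of 96 such counts, 34 moved by over 1.5 times and 62 did not; the cause was not tested.

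None of the 43 called genes changed direction under any alternative run, and each was also called in the paired fit; named genes with a log2 change near 0, such as Sox2, did change sign. Of the list medians over alternatives, 371 stayed within 1 SD over the pairs and 109 did not; the endoderm median ran from -1.25 to -0.48 and the neural one from -0.50 to -0.04. The pairing is a correlation in these data, and the labels do not say what same-numbered libraries share. Genes of chromosome 11 had median log2 deviations from the group mean of 0.103 and 0.056 in RAS present and RAS deleted replicate 1. In replicates 2 and 3 of both groups these ran from -0.054 to -0.016, and the part of this in the results was not tested. All 29 genes that fell had means under 20 CPM, where depth limits the precision. Of the 207 paired calls, 164 were not made in the unpaired fit of all 23 libraries. That fit differs from the paired one in its libraries as well as in the pairs.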
